A study of Homo sapiens with 18 samples.

Results

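The large-subunit ribosomal protein mRNAs encode the proteins of the cytosolic 60S ribosomal subunit. They were taken as 45 genes by Ensembl ID, from RPL3 to RPL41 together with RPLP0, RPLP1 and RPLP2, without pseudogenes, out of 60666 IDs in each of the 3 deposited IP tables. All 45 were present and tested in each of the 4 deposited tables. The tables carry no symbols. Symbols were therefore paired with the IDs along the numbered order of the family, and the pairing was checked against RefSeq positions on GRCh38.p14. In each table the 45 IDs followed the RefSeq position order within every one of 18 chromosomes. RefSeq holds 46 protein-coding symbols of this family, and the 1 that is not among the members is RPL36A.

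The cells were U373-MG, an established human glioblastoma line grown in G418. Retroviral transduction gave them an empty vector with an antibiotic resistance gene (control), wild-type ADAR3 with a FLAG tag (ADAR3 WT) or ADAR3 mutated in its R-domain (R-mutant). All proteins were expressed exogenously, and the labels do not say whether a line is 1 clone. Every group was crosslinked with UV at 150 mJ/cm2, and FLAG immunoprecipitate (IP) and input RNA were sequenced in 3 libraries per genotype and fraction, 18 in all. Libraries were depleted of ribosomal RNA per the labels' protocols, although the molecule label reads polyA RNA. Whether the 3 replicates were grown as separate cultures is not in the labels. The p-values therefore rest on a spread between libraries that may be technical. Values per library, the markers of the cell line and the level of the transgene by name were not analysed here.

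Ribosomal protein genes are among the most highly transcribed genes of growing cells. Their mRNAs begin with a C followed by a run of pyrimidines, the 5′ terminal oligopyrimidine (TOP) sequence, through which mTOR signalling and the RNA-binding protein LARP1 set how many of them are translated. The mRNAs are short, and when translated they sit on polysomes in the cytoplasm. Introns of many of the genes also hold small nucleolar RNAs (snoRNAs). ADAR3 carries double-stranded RNA-binding domains, and single-stranded RNA can bind to its R-domain.

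The start sites of 6 members are shown because they span the whole range of the IP values described next, from the lowest 3 to the highest 3 in ADAR3 WT over control among members with a RefSeq start window. Each window runs from 10 bases before the RefSeq start to 20 bases from it, on the strand of the gene, and capitals mark the unbroken pyrimidines that begin at the start base (RefSeq, GRCh38.p14).
RPL35A, chr3:197950180-197950209, plus strand: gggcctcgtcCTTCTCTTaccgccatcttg
RPL18, chr19:48619159-48619188, minus strand: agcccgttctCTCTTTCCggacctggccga
RPL12, chr9:127451387-127451416, minus strand: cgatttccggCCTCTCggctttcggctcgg
RPL31, chr2:101002279-101002308, plus strand: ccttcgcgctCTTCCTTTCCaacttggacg
RPL14, chr3:40457329-40457358, plus strand: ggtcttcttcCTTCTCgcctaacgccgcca
RPL22, chr1:6199576-6199605, minus strand: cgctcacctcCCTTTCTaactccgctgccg
The pyrimidine run was 8 bases long in RPL35A and RPL18, 6 in RPL12 and RPL14, 7 in RPL22 and 10 in RPL31.
All 6 windows have a TOP-like start, but a window with such a start was shown wherever a gene had one. The windows shown therefore do not stand for other RefSeq starts of these genes. Each of the 6 genes had such a window, at the low and at the high end of the IP values. A TOP-like start was counted where the start base is C and each of the next 4 bases is C or T, on the strand of the gene only. A gene was counted if any of its windows had such a start, and the 27305 genes had 35116 windows. By this count it was found in 27 of the 37 members with a start window (73.0%) and in 5.14% of 27305 genes with one.

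In the FLAG IP of ADAR3 WT, large-subunit ribosomal protein mRNAs were recovered less than in the control IP, each relative to its input. Of the 45 members, 41 had lower and 0 had higher enrichment than in control (two-sided normal test of each deposited fold against its own standard error, Benjamini-Hochberg adjusted p under 0.05 over 21121 genes). At an unadjusted p under 0.05 there were 43 members, all lower, but the share of all tested genes at that threshold was not computed. Over all tested genes, 8.14% were lower and 5.99% were higher by the same test. The median log2 fold change of the members was -1.34, a 2.53-fold lower enrichment, beside 0.01 for all tested genes. Members ranged from -1.90 to 0.36, with quartiles of -1.59 and -1.14, while the quartiles of all tested genes were -0.48 and 0.52.

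Enrichment means IP relative to input, and each fold change was read as the enrichment of one genotype divided by that of the other. The labels do not state this reading. The input folds of the members in ADAR3 WT over control lay between -0.26 and 0.22. Counts were normalized between libraries, so lower means lower relative to other RNAs. Less recovery of these mRNAs cannot be told apart from more of other RNAs in the IP. The control cells carried an empty vector, so their IP held RNA recovered without ADAR3 that bears a FLAG tag. A value below control is therefore not a measure of binding to ADAR3.

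**Figure D1:**
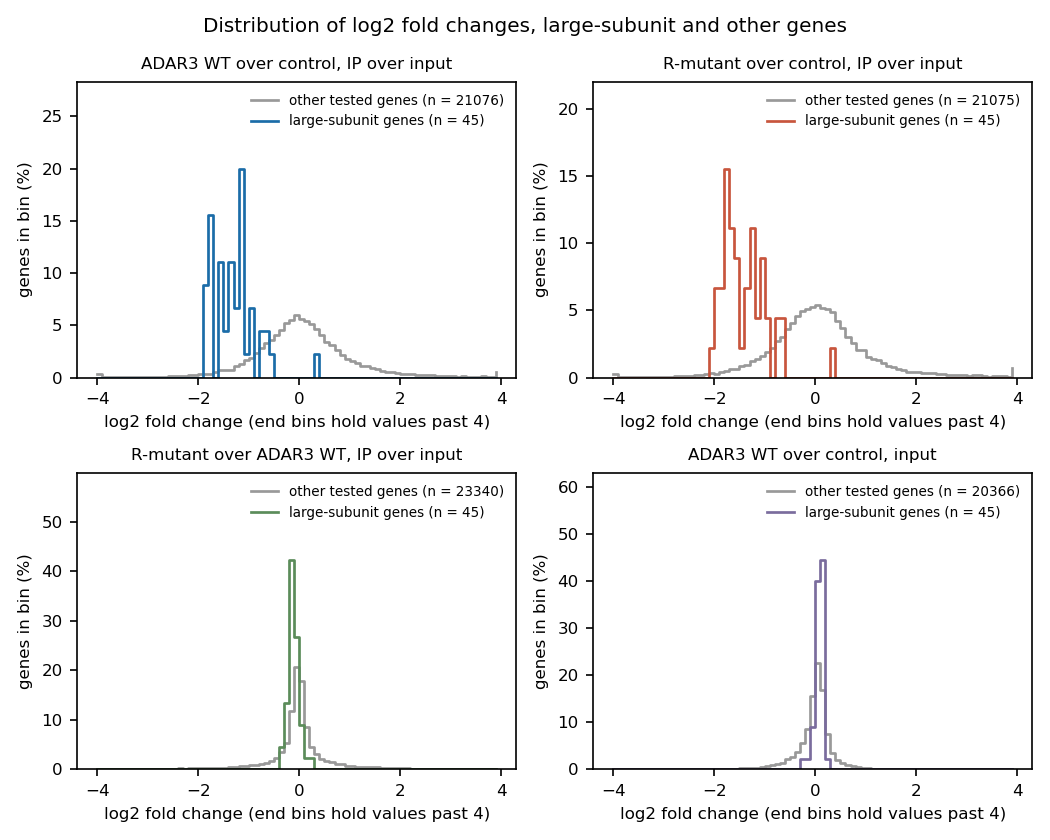
Log2 fold changes (x axis) of the 45 large-subunit genes (coloured line) and of all other tested genes (grey line) in each of the 4 comparisons, as the percent of each set in bins (y axis). In both IP comparisons with control the coloured lines lie to the left, with medians of -1.34 and -1.50, apart from 1 gene to the right of 0 (RPL22), while the lines of the other comparisons lie close to 0.

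A log2 fold change below -1, that is an enrichment lowered by over 2-fold, was found for 36 members in ADAR3 WT over control, against 10.2% of all tested genes. In 17 members the whole 95% interval lay below -1, but the share of all tested genes with such an interval was not computed. RPL35A (ENSG00000182899) had the lowest value in the authors' deposited table, at -1.90 ± 0.21 (standard error), a 3.73-fold lower enrichment (adjusted p 4.90e-17, normal test). RPL35A is needed to mature the large-subunit ribosomal RNA and is mutated in some patients with Diamond-Blackfan anaemia. RPL18 (ENSG00000063177) was close to it at -1.83 ± 0.21 in the authors' deposited table. These values lay within 1 standard error of each other.

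Members with high counts are measured with small errors, so the count was also set beside genes with a mean of at least 1000. This floor does not match the depth of the members. The mean normalized count of the members ran from 37.8 to 17924, with a median of 6662, and 41 of them had a mean of at least 1000. These counts are not scaled by transcript length and serve as a measure of precision only. Of the 6483 tested genes with means of 1000 or more, 15.3% were lower in ADAR3 WT, and their median log2 fold change was -0.07. Of the 200 lowest folds among these genes, 22 belonged to members. The median member had 5.70% of all tested genes below it.

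**Figure D2:**
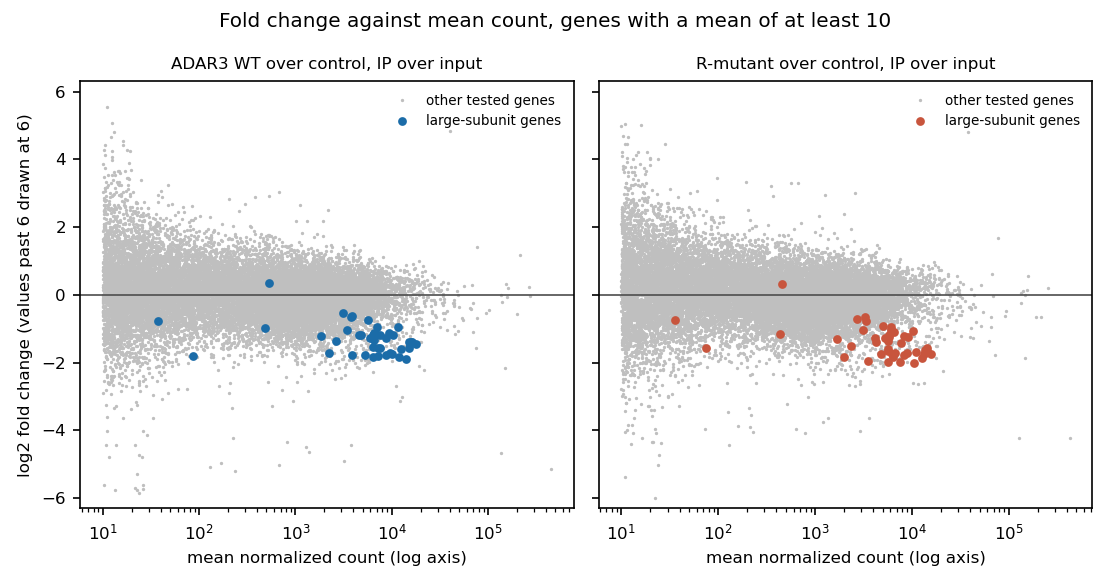
Log2 fold change (y axis) against mean normalized count (x axis, log scale) for tested genes whose mean is 10 or more, in ADAR3 WT over control (left) and R-mutant over control (right), with large-subunit genes as coloured points. Most coloured points lie between means of about 1000 and the highest member mean of 17924 and along the lower edge of the grey cloud, and RPL22 lies above 0.

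The R-mutant was set against the same control libraries. In R-mutant over control, 43 of the 45 members were lower and 0 were higher (normal test, adjusted p under 0.05 over 21120 genes), where 7.95% of all tested genes were lower and 5.38% higher. Their median log2 fold change was -1.50, a 2.84-fold lower enrichment, beside 0.03 for all tested genes, and the quartiles of the members were -1.74 and -1.15. A value below -1 was reached by 38 members, against 10.9% of all genes. In 22 members the whole 95% interval lay below -1, again without a share of all genes to set beside it. Of the 6130 genes with means of 1000 or more, 15% were lower, and 22 of the 200 lowest folds belonged to members. RPL18 was lowest in the authors' deposited table, at -2.02 ± 0.24, a 4.06-fold lower enrichment (adjusted p 3.33e-14, normal test). RPLP1 was close to it at -1.98 ± 0.31 in the authors' deposited table.

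Both comparisons share the control libraries, so their values for a member are given side by side and are not counted as independent. There were 41 members lower in both and 2 called in neither, RPL22 and RPL26. The share of all tested genes lower in both was not computed. In the single comparisons 8.14% of all tested genes were lower in ADAR3 WT and 7.95% in the R-mutant. With the statistic of all genes centred and rescaled to its spread, a stricter setting, 24 members stayed below the threshold in ADAR3 WT over control, against 1.48% of all genes. The same setting left 23 in R-mutant over control, against 1.3%. By the authors' adjusted p, from a likelihood ratio test that covers more terms than this fold change, 43 members were lower in each comparison in the authors' deposited tables, where 23.7% and 23% of all genes were.

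**Figure D3:**
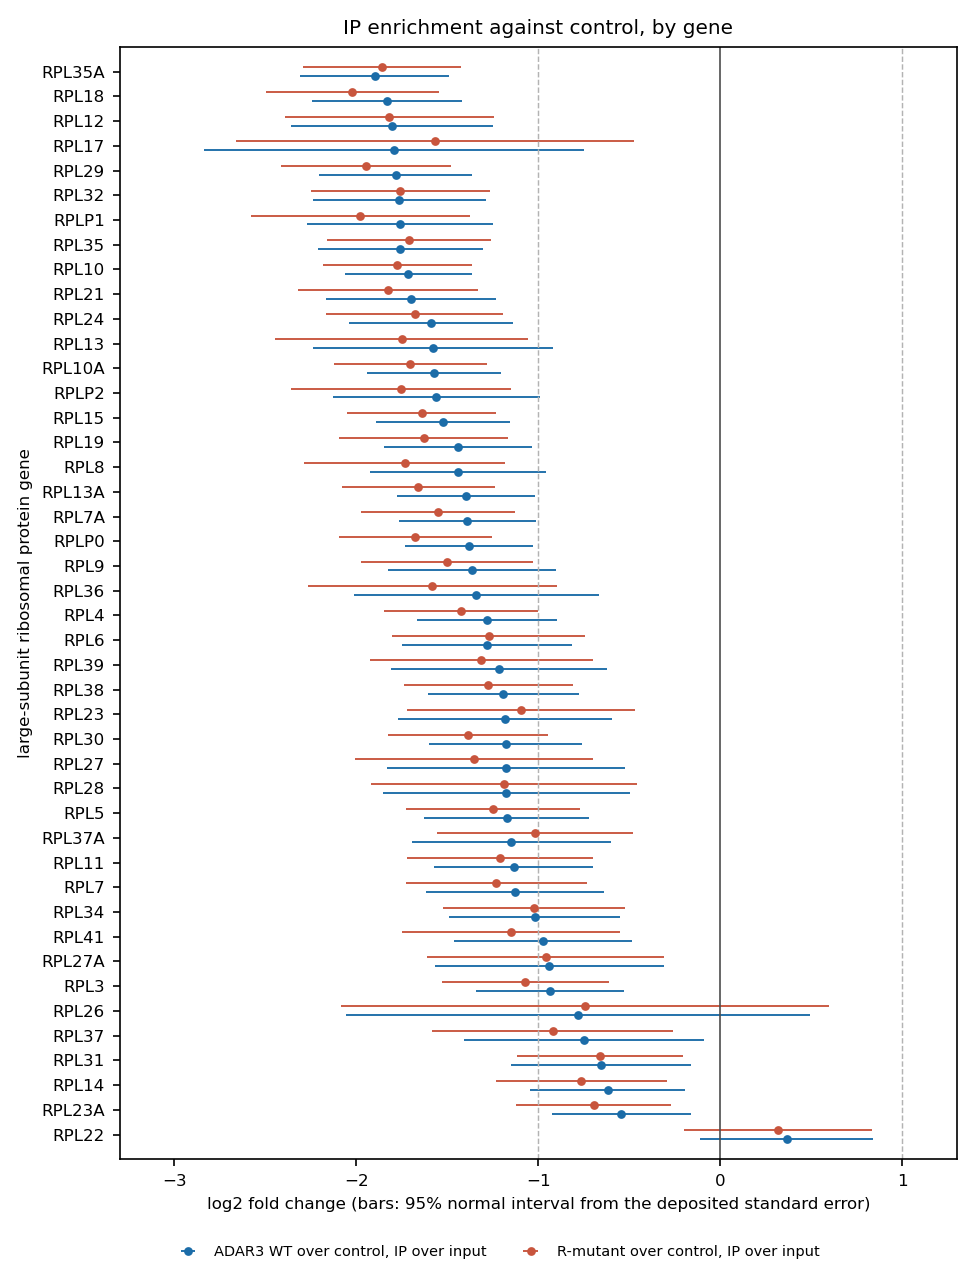
Log2 fold change (x axis) of enrichment in ADAR3 WT over control (blue) and R-mutant over control (red) for 44 of the genes (y axis), ordered by ADAR3 WT, with 95% normal intervals from the deposited standard errors; dashed lines mark 2-fold differences. All genes but RPL22 lie left of 0 in both, from -1.90 for RPL35A to 0.36 for RPL22 in ADAR3 WT.

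The stalk of the large subunit recruits the elongation factors, and the mRNAs of its 4 proteins were all lower in both comparisons. RPLP0 (ENSG00000089157), which anchors the stalk on the ribosomal RNA, had -1.38 ± 0.18 in ADAR3 WT over control and -1.68 ± 0.21 in R-mutant over control in the authors' deposited tables. For the acidic protein RPLP1 (ENSG00000137818) the authors' deposited tables gave -1.76 ± 0.26 and -1.98 ± 0.31. Its partner RPLP2 (ENSG00000177600) had -1.56 ± 0.29 and -1.76 ± 0.31 in the authors' deposited tables. RPL12 (ENSG00000197958), at the base of the stalk, stood at -1.81 ± 0.28 and -1.82 ± 0.29 in the authors' deposited tables. The 95% intervals of the 4 mRNAs overlapped one another in both comparisons.

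RPL5 and RPL11 bind the 5S ribosomal RNA and, when free of the ribosome, the p53 regulator MDM2. The mRNAs of both were lower in both comparisons, but neither passed with the rescaled statistic (adjusted p 0.0601 for RPL5 and 0.0592 for RPL11 in ADAR3 WT over control, and 0.0645 and 0.116 in R-mutant over control, normal test). In the authors' deposited tables RPL5 (ENSG00000122406) had -1.17 ± 0.23 in ADAR3 WT over control and -1.25 ± 0.24 in R-mutant over control. RPL11 (ENSG00000142676) had -1.14 ± 0.22 and -1.21 ± 0.26 in the authors' deposited tables. RPL10A (ENSG00000198755), the protein of the L1 stalk through which spent tRNA leaves, had -1.58 ± 0.19 and -1.70 ± 0.22 in the authors' deposited tables.

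Around the peptidyl transferase centre, where peptide bonds form, the mRNAs of RPL3, RPL8 and RPL10 were lower in both comparisons. RPL10 (ENSG00000147403), which joins late in the cytoplasm and is needed before the subunits can meet, had the smallest adjusted p of the members. The authors' deposited tables gave it -1.71 ± 0.18 in ADAR3 WT over control (adjusted p 5.71e-19, normal test) and -1.77 ± 0.21 in R-mutant over control (adjusted p 8.28e-15, normal test). RPL8 (ENSG00000161016) had -1.44 ± 0.25 and -1.74 ± 0.28 in the authors' deposited tables. RPL3 (ENSG00000100316), among the first proteins to join the assembling subunit, had values of smaller size, at -0.93 ± 0.21 and -1.07 ± 0.23 in the authors' deposited tables, and did not pass with the rescaled statistic (adjusted p 0.123 and 0.125, normal test).

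The proteins that line or surround the tunnel through which the new peptide leaves had mRNAs with values spread from -1.79 to -0.55 in ADAR3 WT over control. Of these 8 mRNAs, 6 were lower in ADAR3 WT and 7 in the R-mutant. RPL35 (ENSG00000136942), at the tunnel exit, stood at -1.76 ± 0.23 in ADAR3 WT over control and -1.71 ± 0.23 in R-mutant over control in the authors' deposited tables. RPL23A (ENSG00000198242), its neighbour at the exit and a docking site of the signal recognition particle, had only -0.55 ± 0.19 and -0.70 ± 0.22 in the authors' deposited tables (adjusted p 0.0399 and 0.0149, normal test). With the rescaled statistic RPL17, RPL23A and RPL39 lost their calls in both comparisons, and RPL31 its call in R-mutant over control. The 95% intervals of these 2 mRNAs did not overlap, at -2.21 to -1.30 for RPL35 and -0.93 to -0.16 for RPL23A in ADAR3 WT over control.

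Between them lay RPL19 (ENSG00000108298) at -1.44 ± 0.21 and -1.63 ± 0.24, and RPL4 (ENSG00000174444), which narrows the tunnel, at -1.28 ± 0.20 and -1.43 ± 0.22, in the authors' deposited tables. RPL39 (ENSG00000198918), a short protein of the tunnel wall, had -1.22 ± 0.30 and -1.31 ± 0.31 there. RPL31 (ENSG00000071082) had -0.66 ± 0.25 in ADAR3 WT over control, which did not pass (adjusted p 0.0604, normal test), and -0.66 ± 0.23 in R-mutant over control, which did (adjusted p 0.0378, normal test), in the authors' deposited tables. In the direct comparison of R-mutant and ADAR3 WT, RPL31 stood at -0.02 ± 0.24 in the authors' deposited table.

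RPL17 and RPL26, also at the tunnel, had far fewer counts than the other members, with means of 86.9 and 37.8 in ADAR3 WT over control. In the authors' deposited tables RPL17 (ENSG00000265681) was at -1.79 ± 0.53 in ADAR3 WT over control and -1.57 ± 0.56 in R-mutant over control. RPL26 (ENSG00000161970) was at -0.78 ± 0.65 and -0.74 ± 0.68 and passed in neither (adjusted p 0.50 and 0.556, normal test) in the authors' deposited tables. Its 95% interval of -2.06 to 0.49 in ADAR3 WT over control covers both the median of the members and 0. In RefSeq, RPL17 overlaps the read-through gene RPL17-C18orf32, and 12 members in all overlap another coding gene on either strand. These include RPL10, RPL23A, RPL31, RPL32 and RPL35A. The sources used here do not say how reads of overlapping genes, or reads that also match one of the many ribosomal protein pseudogenes, were counted, so the values of such members are uncertain to that extent.

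The other 27 members have more scattered roles, and 25 of them were lower in ADAR3 WT and 26 in the R-mutant. Among the lowest were RPL29 (ENSG00000162244) at -1.78 ± 0.21 and -1.95 ± 0.24, and RPL32 (ENSG00000144713) at -1.77 ± 0.24 and -1.76 ± 0.25, in the authors' deposited tables. RPL21 (ENSG00000122026) had -1.70 ± 0.24 and -1.83 ± 0.25 there. RPL24 (ENSG00000114391), part of a bridge to the small subunit, had -1.59 ± 0.23 and -1.68 ± 0.25 in the authors' deposited tables. RPL15 (ENSG00000174748), a structural protein of the subunit core, had -1.52 ± 0.19 and -1.64 ± 0.21 there. RPL13A (ENSG00000142541), which also acts outside the ribosome as a translational repressor in interferon-treated cells, had -1.40 ± 0.19 and -1.66 ± 0.22 in the authors' deposited tables.

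Values near the middle of the range included RPL38 (ENSG00000172809), known for its effect on the translation of Hox mRNAs, at -1.19 ± 0.21 and -1.28 ± 0.24 in the authors' deposited tables. RPL30 (ENSG00000156482) stood at -1.18 ± 0.22 and -1.38 ± 0.22 there. RPL41 (ENSG00000229117), the shortest protein of the ribosome, had -0.97 ± 0.25 and -1.15 ± 0.31 in the authors' deposited tables, on a mean of 478 in the first. RPL7 (ENSG00000147604) stood at -1.13 ± 0.25 and -1.23 ± 0.25, and its namesake RPL7A (ENSG00000148303) at -1.39 ± 0.19 and -1.55 ± 0.22, in the authors' deposited tables. RPL14 (ENSG00000188846) was closer to 0, at -0.62 ± 0.22 and -0.76 ± 0.24 in the authors' deposited tables. The calls of RPL7, RPL14 and RPL41 were lost in both comparisons with the rescaled statistic. RPL37 (ENSG00000145592) had -0.75 ± 0.34 in ADAR3 WT over control, which did not pass (adjusted p 0.129, normal test), and -0.92 ± 0.34 in R-mutant over control, which did (adjusted p 0.0475, normal test), in the authors' deposited tables.

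The remaining members kept to the same range. RPL6 (ENSG00000089009) had -1.28 ± 0.24 and -1.27 ± 0.27, and RPL9 (ENSG00000163682) had -1.36 ± 0.23 and -1.50 ± 0.24, in the authors' deposited tables. RPL23 (ENSG00000125691), which like RPL5 and RPL11 can bind MDM2, had -1.18 ± 0.30 and -1.09 ± 0.32 there. For RPL34 (ENSG00000109475) the authors' deposited tables gave -1.02 ± 0.24 and -1.02 ± 0.26. All 4 were lower in both comparisons by the main test. Under the rescaled statistic RPL23 and RPL34 lost their calls in both, and RPL6 its call in R-mutant over control. A group with wider errors was made up of RPL13, RPL27, RPL27A, RPL28, RPL36 and RPL37, from -1.58 ± 0.34 for RPL13 and -1.34 ± 0.34 for RPL36 to -0.75 ± 0.34 for RPL37 in ADAR3 WT over control in the authors' deposited table. RPL27A had the value next closest to 0 in that group, at -0.94 ± 0.32 and -0.96 ± 0.33 in the authors' deposited tables (adjusted p 0.0292 and 0.0325, normal test). Rescaling the statistic removed the calls of RPL13, RPL27, RPL27A, RPL28 and RPL36 in both comparisons. It also removed that of RPL37 in R-mutant over control.

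RPL22 was the exception. RPL22 (ENSG00000116251) also binds structured RNA outside the ribosome and represses its paralog RPL22L1, and many cells can do without it. The authors' deposited tables gave it 0.36 ± 0.24 in ADAR3 WT over control and 0.32 ± 0.26 in R-mutant over control. Neither value passed (adjusted p 0.367 and 0.502, normal test). The 95% interval in ADAR3 WT over control ran from -0.11 to 0.84. It lay wholly above the intervals of 42 of the other members, and in R-mutant over control above those of 43. RPL22 was picked as the highest member, and the share of all tested genes with intervals below its own was not computed. Of all tested genes, 68.6% had a lower fold than RPL22 in ADAR3 WT over control, and 64.8% in R-mutant over control. Its mean normalized count was 527 in the first comparison and its standard error close to the members' median of 0.24, so its position does not rest on an unusually wide error. The authors' adjusted p for RPL22 was 0.222 and 0.239 in the authors' deposited tables.

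Members that host snoRNAs and members that do not had close medians, as did members with and without a TOP-like start. These differences were not tested. RefSeq places at least 1 snoRNA gene inside 20 of the 45 members, among them RPL3, RPL4, RPL7A, RPL13A and RPL23A with 4 each. The median log2 fold change of these 20 was -1.34 in ADAR3 WT over control, with 19 of them lower, and that of the 25 without was -1.34, with 22 of them lower. In R-mutant over control the medians were -1.49 and -1.50. Members with a TOP-like RefSeq start had a median of -1.38 in ADAR3 WT over control, with 24 of 27 lower, and the 10 with a window but no TOP-like start had -1.40, with 10 of 10 lower. RefSeq starts can differ from those used in U373-MG cells, so a window without the run does not show that the mRNA lacks it. RPL5, RPL7, RPL8, RPL23, RPL23A, RPL30 and RPL37 were among the 8 members with no window.

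The mean counts were also set against the input. For each gene the mean of an IP table was divided by the mean of the input table. The sources used here do not name the libraries behind each mean. The tables were normalized separately, so only the position among genes is read from this ratio. An IP-table mean pools the genotypes compared, so a gene lowered in one of them has a lower ratio through that same difference, and the ratio is not separate evidence of it. If a mean held equal numbers of IP and input libraries on one scale, an mRNA with no counts in the IP would have a ratio of 0.5. The lowest member ratio in R-mutant over control was 0.484, so 0.5 is not a floor here. A ratio near 0.5 is therefore not read as absence from the IP. In ADAR3 WT over control the ratio had a median of 0.609 in the members and 0.848 in the 13661 genes with an input mean of at least 50. Of the members, 34 lay below the 5th percentile of all genes, and 43 below the lower quartile of 0.752. In R-mutant over control the medians were 0.547 and 0.783, with 37 members below the 5th percentile. In R-mutant over ADAR3 WT they were 0.553 and 0.892, with 40 members below it. The 3 tables share genotypes and were divided by the same input mean, so these are not 3 separate views.

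RPL34 and RPL7 had the lowest ratios in ADAR3 WT over control, both 0.550. RPL28 at 0.799 and RPL22 at 0.788 had the highest, with 37.3% and 34.3% of genes below them. RPL28 (ENSG00000108107) was not apart in the fold change, at -1.18 ± 0.35 in ADAR3 WT over control in the authors' deposited table (adjusted p 0.00836, normal test).

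**Figure D4:**
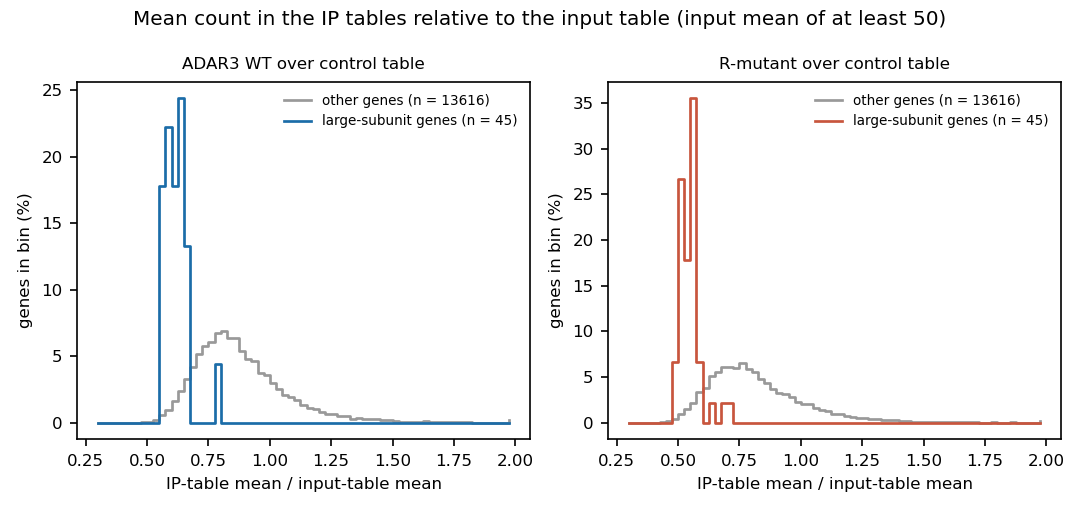
Ratio of the mean normalized count in an IP table to that in the input table (x axis), as the percent of genes per bin (y axis), for large-subunit genes (coloured) and other genes (grey) with an input mean of at least 50, in the ADAR3 WT over control table (left) and the R-mutant over control table (right). The members' medians of 0.609 and 0.547 lie left of those of all genes, 0.848 and 0.783.

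The direct comparison asks whether the R-domain mutation altered the recovery of these mRNAs relative to other RNAs. Of the 45 members, 0 were higher and 0 lower in this direct comparison (adjusted p under 0.05 by the normal test over 23385 genes), where 0% of all genes were higher and 0.00428% lower. At an unadjusted p under 0.05 there were also 0 members, against 0.624% of all genes. With no differences, a share of about 0.05 would pass if the standard errors matched the spread of the folds. The test was therefore strict in this comparison, and 0 calls do not show that recovery was the same. The median log2 fold change of the members was -0.14, beside -0.02 for all genes. A value below 0 was seen in 39 members and in 53.9% of all genes. The members share their libraries and are not independent, so this leaning was not tested.

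The values of single members in this comparison ran from -0.31 to 0.21. In the authors' deposited table the lowest were RPLP0 at -0.31 ± 0.18, RPL8 at -0.31 ± 0.27 and RPL13A at -0.27 ± 0.18. The highest were RPL17 at 0.21 ± 0.41, RPL37A (ENSG00000197756) at 0.11 ± 0.30 and RPL23 at 0.07 ± 0.29 in the authors' deposited table. Of the 45 values, 41 were smaller than their own standard error. The 95% interval lay within a 2-fold difference in both directions for 37 members, and within 1.5-fold for 21. The share of all tested genes was not computed for any of these counts, so they are not read as particular to the members. For RPL35A, the member with the lowest IP value in ADAR3 WT, the fold change was 0.03 and the interval -0.35 to 0.41.

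By structural group, the other stalk members stood at -0.23 ± 0.31 for RPLP1, -0.21 ± 0.32 for RPLP2 and -0.03 ± 0.32 for RPL12 in the authors' deposited table of R-mutant over ADAR3 WT. The 5S-binding proteins both had -0.09, with errors of 0.19 for RPL5 and 0.24 for RPL11, and RPL10A of the L1 stalk had -0.14 ± 0.19 in the authors' deposited table. Near the peptidyl transferase centre, the authors' deposited table gave -0.15 ± 0.23 for RPL3 and -0.07 ± 0.18 for RPL10. At the exit tunnel the values ran from -0.20 ± 0.22 for RPL19 through -0.16 ± 0.16 for RPL4, -0.16 ± 0.17 for RPL23A and -0.11 ± 0.18 for RPL39 to 0.03 ± 0.23 for RPL35 and 0.04 ± 0.54 for RPL26 in the authors' deposited table. RPL41 stood at -0.19 ± 0.26 there, and RPL22 at -0.06 ± 0.20, so the member that differed from the rest against control lay among them here.

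A difference of 2-fold was not bounded for the other 8 members, which were RPL17, RPL26, RPL13, RPL27, RPL27A, RPL28, RPL36 and RPL37. Of these, 7 had a standard error over 0.5 here, up to 0.64 for RPL36, against a median of 0.22 over the members. For RPL26 and RPL17 the counts were low, while RPL13 (ENSG00000167526), RPL27 (ENSG00000131469), RPL27A (ENSG00000166441), RPL28, RPL36 (ENSG00000130255) and RPL37 had means of at least 5292. The same 6 also had standard errors of 0.38 to 0.44 in the authors' deposited input table, where the median over the members was 0.24. By the authors' likelihood ratio test, 6 members were higher and 38 lower in the authors' deposited table, where 21.5% and 29.6% of all genes were. That test covers more terms than the fold change, so its counts do not measure a difference between the genotypes.

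In input RNA, these mRNAs were close to the same level in ADAR3 WT and control. Of the 45 members, 0 were higher and 0 lower (normal test, adjusted p under 0.05 over 20411 genes), where 0.103% of all genes were higher and 0.186% lower. No member had an unadjusted p under 0.05, against 2.92% of all genes. This share, too, was below 0.05, so 0 calls do not show equal levels. The median log2 fold change was 0.10, a 1.07-fold level, beside 0.03 for all genes, and 39 members lay above 0, as did 56.6% of all genes. The 95% interval lay within a 2-fold difference for all 45 members, and within 1.5-fold for 21. The lowest end of a member interval was -0.91 and the highest 0.99. The share of all tested genes within these bounds was not computed.

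RPL39, at 0.22 ± 0.24, and RPL9, at 0.19 ± 0.22, were among the highest input values in the authors' deposited table. The lowest were those of RPL26 at -0.26 ± 0.33, RPL41 at -0.14 ± 0.17 and RPL22 at -0.07 ± 0.21 in the authors' deposited table. Each interval included 0. The stalk members had input values of -0.03 ± 0.22 for RPLP0, 0.11 ± 0.35 for RPLP1, 0.16 ± 0.38 for RPLP2 and 0.11 ± 0.35 for RPL12 in the authors' deposited table. RPL5 stood at 0.07 ± 0.20, RPL11 at -0.01 ± 0.26 and RPL10A at 0.17 ± 0.20 there. Of the peptidyl transferase group, RPL3 had 0.05 ± 0.23, RPL8 had 0.16 ± 0.34 and RPL10 had 0.18 ± 0.17 in the authors' deposited table. The tunnel members other than RPL26 and RPL39 lay between 0.04 ± 0.24 for RPL31 and 0.18 ± 0.27 for RPL35 in the authors' deposited table. The median IP value of -1.34 in ADAR3 WT over control thus stood beside a median input value of 0.10. Input of the R-mutant was not compared here with that of the control.

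**Figure D5:**
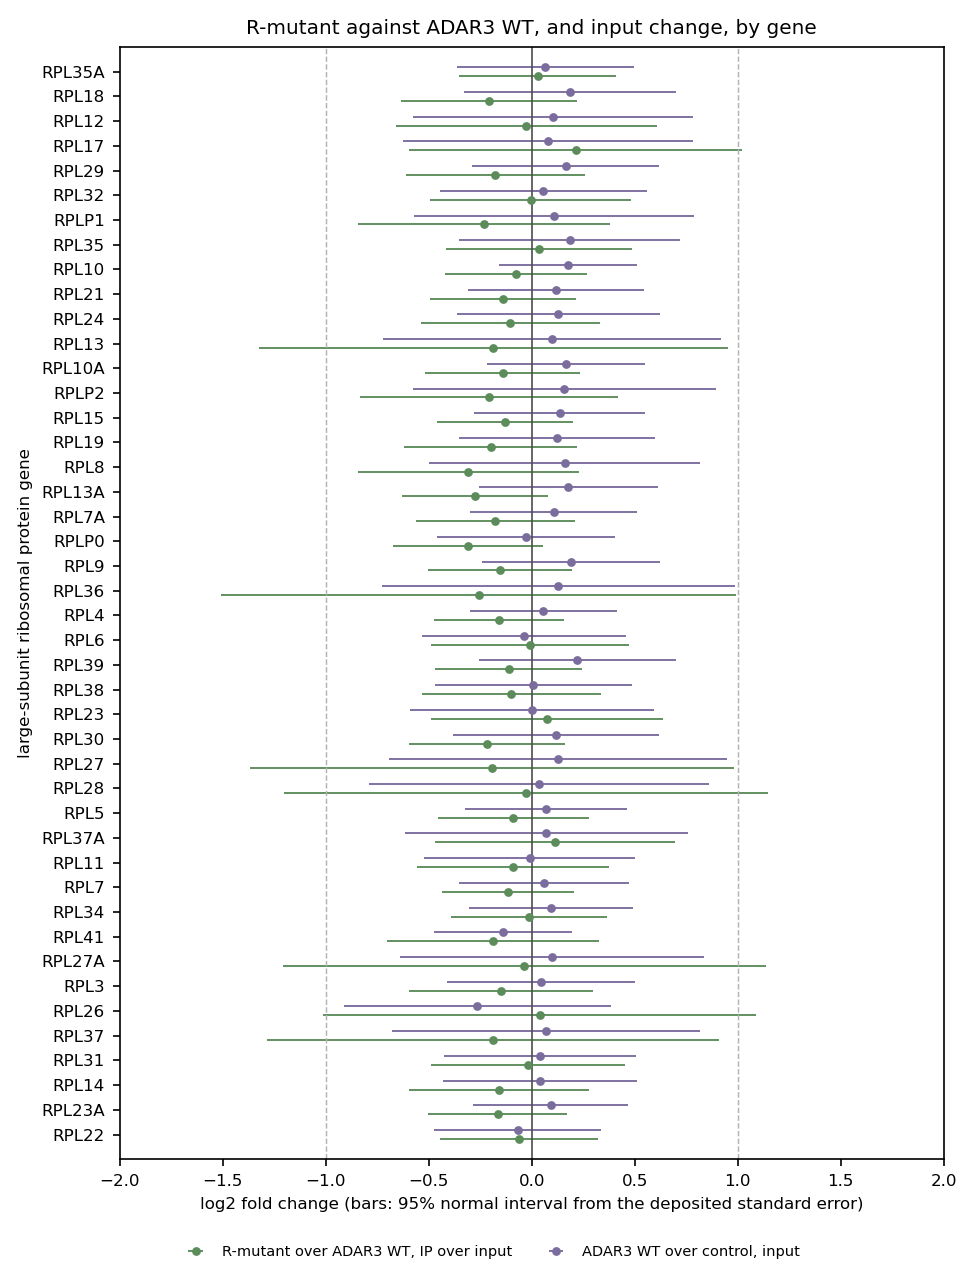
Log2 fold change (x axis) of IP enrichment in R-mutant over ADAR3 WT (green) and of input RNA in ADAR3 WT over control (purple) for 44 of the genes (y axis, in the order of ADAR3 WT over control), with 95% normal intervals; dashed lines mark 2-fold differences. All points lie between -0.31 and 0.22, and the wide green intervals are those of RPL17, RPL26, RPL13, RPL27, RPL27A, RPL28, RPL36 and RPL37.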

How the data were processed

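The members and the gene groups were chosen with earlier results of these data known. STAR 2.7.7a, GRCh38, DESeq2 and featureCounts appear in the submitters' processing notes, without roles. The annotation, the model and its libraries were not stated in the sources used. Per the file headers, the authors' deposited tables give a mean signal (the mean normalized count), log2 fold changes and their standard errors, a test statistic (a score) and p-values with adjusted values. In the 3 IP tables the deposited p-values match a likelihood ratio statistic read on chi-square (7 degrees of freedom) for most or all genes, and in the input table the deposited score equals fold over standard error. Each fold was therefore tested against its standard error with a two-sided normal test, Benjamini-Hochberg adjusted at 0.05 over all genes with a deposited adjusted p, and intervals are 95% normal. The input table holds 6 columns of single libraries that match no label and were not used, so depth per library is unknown here. Start windows and gene positions came from RefSeq, GRCh38.p14, for 37 and 45 members. The planned lists of other genes and markers were not evaluated, because the files pair no ID with a symbol. By rule, the text names the 3 lowest and 3 highest members of every comparison and the members of the structural groups; further members were chosen after their values were seen. The values of 1 member are not reported here, although the counts and medians include it. The procedure was run on simulated folds with normal errors of the deposited size, which is the model that the test assumes. That run checks the code and cannot show how well the test holds its error rate on these data. Computations used Python 3.11.15, numpy 2.4.6, pandas 2.3.3, scipy 1.17.1, statsmodels 0.14.6 and matplotlib 3.10.9.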

Additional observations from a re-analysis of the deposited data

How the results depend on the processing

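Of 68 combinations of a result and an alternative setting, 64 stayed within the margin set: 1.5 times the original for a count of members, and the median standard error of the members for their median. The median in input, for one, went from 0.10 to 0.07 when centred on all genes. Within that margin, members lower in R-mutant over control went from 43 to 36 at an adjusted p under 0.01, and members lower in ADAR3 WT over control from 41 to 36 with a log2 fold change of at least 1 in size. With the statistic centred and rescaled to its robust spread over all genes, the members lower in ADAR3 WT over control fell to 24 and those in R-mutant over control to 23, by construction of a stricter scale. With the authors' adjusted p in R-mutant over ADAR3 WT, 6 members were higher and 38 lower, by a test that covers more terms. RPL14, RPL23A and RPL27A in ADAR3 WT over control, and RPL17, RPL27A, RPL31 and RPL37 in R-mutant over control, lost their calls when p was adjusted over all genes with a fold. No paired analysis was possible because columns of single libraries, where present, carry names found in no label, so the replicate block and leaving out a replicate were not run.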
